A study of Drosophila melanogaster with 13 samples.

Results

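Patch-seq libraries of MN1-Ib, a glutamatergic motoneuron that can be recognised in the ventral nerve cord of Drosophila melanogaster larvae, were selected on their level of lncRNA:roX1 (roX1), a noncoding RNA of the dosage compensation system. Of the 13 libraries, 6 held roX1 at 1000 CPM (the count of a gene scaled to the total count of its library) or more and are called high-roX1, and 7 held less and are called low-roX1. The division comes from a measured value, so the roX1 level itself is given only as a description. The labels used here do not give the sex of the larvae, and the sets are named by roX1 alone.

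Each library pooled the cytoplasm of 4 to 8 MN1-Ib cells, drawn by patch pipette from 1 or 2 larvae of instar 3, and was an independent reaction. All groups carried a driver active in this neuron, MN1-Ib-GAL4, and the membrane reporter UASmCD8:GFP. The 3 control libraries (MN1> GFP) had no RNA interference, while 3 carried Shal RNAi against the Kv4-type channel gene Shal, 4 carried Notch RNAi against the receptor gene N, and 3 carried both (Notch+Shal RNAi). The sets cut across 3 of these genotypes: 2 of 3 Shal RNAi, 2 of 4 Notch RNAi and 2 of 3 Notch+Shal RNAi libraries were high-roX1, and all 3 control libraries were low-roX1. Control libraries therefore add to the estimate of the spread and not to the contrast between the sets when genotype is a covariate. Where nothing says that reactions came from separate larvae, p-values measure only the spread between these reactions.

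Total counts were 3783100 to 9066553 in the high-roX1 and 4331405 to 9319116 in the low-roX1 libraries, and the floor of 3 counts, taken for a gene without any, was worth 0.322 to 0.793 CPM and covers counting error alone. VGlut, the vesicular glutamate transporter that marks motoneurons, had 1128 to 2841 CPM in the high-roX1 and 401 to 1841 CPM in the low-roX1 libraries. High-roX1 libraries detected 7364 to 8961 genes (median 8283) and low-roX1 libraries 7698 to 9839 (median 9160). Mitochondrially encoded RNA, which stood apart in Shal RNAi 1 (13.5% of counts, low-roX1) and Shal RNAi 3 (11.5%, high-roX1), took 0.893 to 11.5% in one set and 2.19 to 13.5% in the other. The RNA interference targets did not separate the libraries named for them: Shal was at 20.5 to 135.0 CPM in the 6 libraries targeting it and 5.10 to 94.97 CPM in the other 7, and N at 16.3 to 329 CPM in the 7 libraries targeting it and 1.29 to 229 CPM in the other 6. Groups are therefore given as labelled.

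In flies, dosage compensation raises transcription of the single X chromosome of males. The noncoding RNAs roX1 and roX2, both made from the X, join the MSL proteins (msl-1, msl-2, msl-3, mle and mof) in a complex that binds the male X and acetylates its chromatin. In females the RNA-binding protein Sxl blocks translation of msl-2, the complex does not form, and both roX RNAs are scarce.

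The gene of roX1 (FBgn0019661) lies on chromosome X from 3857230 to 3862697 on the minus strand (BDGP6.54). By genotype its level was 1926 and 2392 CPM in Notch RNAi 1 and 3, against 31.3 and 64.3 CPM in Notch RNAi 2 and 4. It was 3823 and 1289 CPM in Notch+Shal RNAi 1 and 2, against 52.5 CPM in Notch+Shal RNAi 3, and 1078 and 2620.3 CPM in Shal RNAi 2 and 3, against 88.0 CPM in Shal RNAi 1. The limit thus fell in a wide gap: the libraries nearest to it were Shal RNAi 2 above and Shal RNAi 1 below, and a limit of 500 CPM gives the same sets. Control 1, 2 and 3 had the 3 lowest values, 23.1, 13.5 and 7.73 CPM. The mean was 2188 ± 1001 CPM in the high-roX1 (SD, n = 6) and 40.1 ± 29.3 CPM in the low-roX1 libraries (SD, n = 7).

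The other roX RNA, lncRNA:roX2 (roX2, FBgn0019660, chromosome X, 11579065 to 11580432, plus strand), was not used to form the sets. Its level in the high-roX1 libraries was 251 CPM in Notch RNAi 1, 208 in Notch RNAi 3, 124 in Notch+Shal RNAi 1, 9.38 in Notch+Shal RNAi 2, 97.2 in Shal RNAi 2 and 932 in Shal RNAi 3. In the low-roX1 libraries it was 0.634 CPM in Notch RNAi 2, 4.02 in Notch RNAi 4, 7.22 in Notch+Shal RNAi 3, 0.462 in Shal RNAi 1, and 0.671, 0.215 and 0.271 in Control 1, 2 and 3. Every high-roX1 library thus held more roX2 than every low-roX1 library, but narrowly for Notch+Shal RNAi 2 and 3, and after normalisation by TMM factors (normalised CPM) that pair changed order, at 7.46 and 7.58. In 5 low-roX1 libraries the level rested on 2 to 5 counts.

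The means of roX2 were 270.4 ± 335 CPM (SD, n = 6) and 1.93 ± 2.69 CPM (SD, n = 7), and with genotype as a covariate its log2 fold change, high-roX1 over low-roX1, was 6.13 (SE 1.38). In edgeR's quasi-likelihood test this had an unadjusted p of 3.84e-04 and did not pass over all genes (adjusted p = 0.831). It passed in edgeR without Notch+Shal RNAi 3 (log2 fold change 7.88, adjusted p = 0.0432), in edgeR without the genotype covariate (7.62, adjusted p = 0.0234), in edgeR without a filter on low counts (6.13, adjusted p = 1.60e-07) and in DESeq2 (6.12, adjusted p = 1.27e-07). These were 4 of 26 alternatives, over which the adjusted p of roX2 ran from 1.27e-07 to 1. Over the 13 libraries left out 1 at a time the log2 fold change of roX2 stayed between 5.24 and 7.88.

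The proportion of roX1 to roX2 differed between libraries of a set. It was 2.81 in Shal RNAi 3, where roX2 was highest, 7.67 to 30.8 in 4 high-roX1 libraries, and 138 in Notch+Shal RNAi 2. In the low-roX1 libraries it was 7.27 in Notch+Shal RNAi 3 and 16 to 190.5 in the other 6. These are ratios of CPM, not per length, so they compare libraries and not the abundance of one RNA with that of the other.

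**Figure D1:**
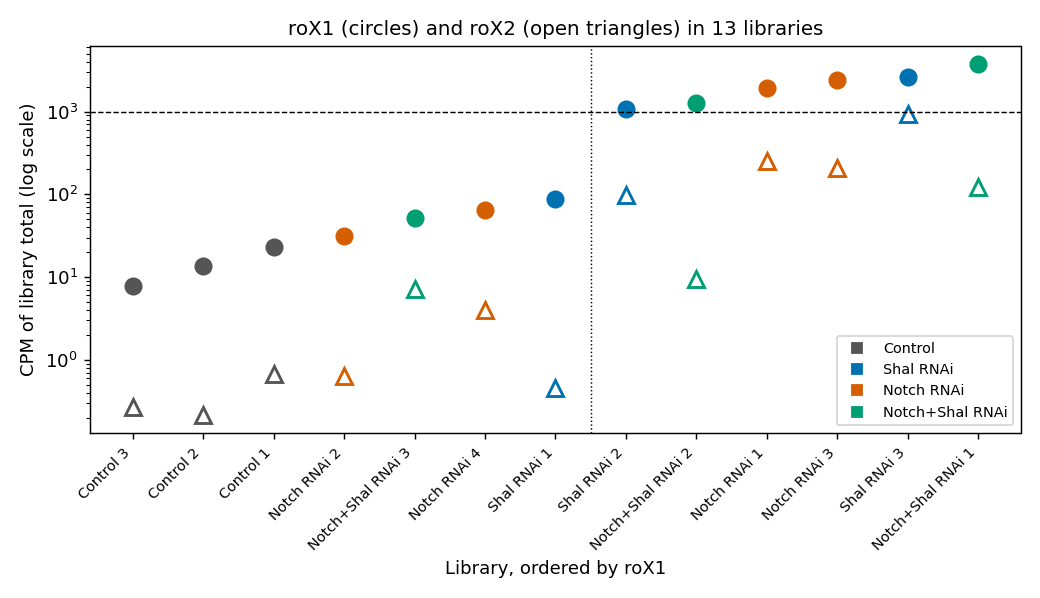
Level of roX1 (filled circles) and roX2 (open triangles) in each library on a log axis of CPM, libraries ordered by roX1 and coloured by genotype; the dashed line is the limit of 1000 CPM and the dotted line divides the sets. The roX1 values leave a gap between 88.0 and 1078 CPM, and roX2 runs from 9.38 to 932 CPM to the right of the dotted line and from 0.215 to 7.22 CPM to its left.

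The part of the transcriptome taken by X-linked RNA did not differ between the sets beyond the spread between libraries. Without the roX genes, X-linked genes held 14.2 ± 0.728% of nuclear gene counts in the high-roX1 (SD, n = 6) and 13.8 ± 0.732% in the low-roX1 libraries (SD, n = 7). The values were 13.2 to 14.9% (median 14.3%) and 12.8 to 14.9% (median 13.7%), so the sets overlapped over nearly their whole range. The difference of 0.411 percentage points had a p of 0.324 in a 2-sided exact permutation test over the 13 libraries, with a 95% interval, from inverting the same test, of -0.500 to 1.28 percentage points. As a log2 ratio of X-linked to autosomal counts, where 1 is a doubling, the difference was 0.0511 with an interval of -0.0580 to 0.155, a measure added after the data were seen. In bulk pools like these, fewer cells of a type and less RNA per cell cannot be told apart.

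Within genotypes the X-linked share was 13.5 and 14.9% in high-roX1 against 13.5 and 14.9% in low-roX1 libraries of Notch RNAi. It was 13.9 and 14.8% against 12.8% in Notch+Shal RNAi, and 13.2 and 14.8% against 13.7% in Shal RNAi, while the controls stood at 13.3 to 14.6%. The Notch+Shal RNAi values did not overlap and the other genotypes did. Permuting the sets within genotypes gave a difference of 0.542 percentage points (exact permutation p = 0.389, 54 arrangements, smallest p possible 0.0185).

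The level of the typical X-linked gene was read as well. For each library the median over X-linked genes of log2(normalised CPM + 0.5), centred on the mean of the 13 libraries, was set against the same median over autosomal genes. This X level over the autosomal level was -0.22 to 0.28 in the high-roX1 libraries (mean -0.03 ± 0.20, SD, n = 6) and -0.11 to 0.31 in the low-roX1 libraries (mean 0.04 ± 0.13, SD, n = 7). Notch+Shal RNAi 2 and Notch RNAi 4, from different sets, had the highest values, 0.28 and 0.31. The share of detected nuclear genes that were X-linked also overlapped, at 15.5 to 16.4% against 15.6 to 16.4%.

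**Figure D2:**
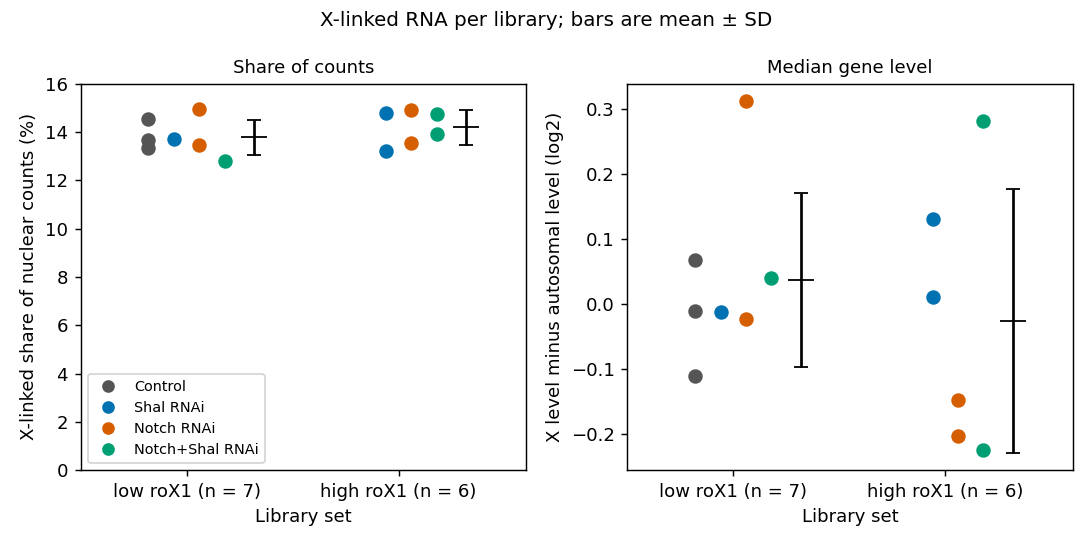
X-linked share of nuclear gene counts in percent (left, axis from 0) and X level minus autosomal level in log2 units (right) for each library, by set and coloured by genotype, with mean ± SD beside the points. The shares overlap, at 12.8 to 14.9% in the low-roX1 and 13.2 to 14.9% in the high-roX1 libraries.

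Gene by gene, edgeR with a filter on low counts called no gene between the sets, roX1 left aside. In this fit, with genotype as a covariate, 0 of 8907 genes had an adjusted p under 0.05 (0% called), among them 1436 X-linked and 7387 autosomal genes (0% each), and 413 (4.64%) had an unadjusted p under 0.05. Of these, 131 (1.47%) were higher in the high-roX1 and 282 (3.17%) in the low-roX1 libraries. The direction differed with the level of the genes. Autosomal genes with a mean under 20 CPM had 53 higher in the high-roX1 and 165 in the low-roX1 libraries. At 20 to 100 CPM these were 34 and 53, and at 100 CPM or more 27 and 17. X-linked genes other than the roX genes had 8 and 27, 5 and 11, and 2 and 6 at these levels. Limma voom called 0 genes, edgeR without the filter called 37, of which 30 were lower in the high-roX1 libraries, and DESeq2 called 78, of which 65 were lower in the high-roX1 libraries and 11 were X-linked. The median dispersion was 1.35, so counts varied widely between libraries.

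X-linked genes, without both roX genes, had a median log2 fold change of -0.13, with quartiles of -1.02 and 0.55 and 644 of 1435 above 0. Autosomal genes had a median of -0.06, with quartiles of -0.95 and 0.67 and 3533 of 7387 above 0, and all genes tested had a median of -0.07. An unadjusted p under 0.05 was found for 59 X-linked (4.11%) and 349 autosomal genes (4.72%). Among genes with a mean of at least 100 CPM the medians were -0.02 for 260 X-linked and 0.05 for 1490 autosomal genes. By arm, the medians were -0.05 (2L), -0.08 (2R), -0.08 (3L), -0.01 (3R) and -0.26 for the 79 genes tested on chromosome 4, and of 17 mitochondrially encoded genes 4 lay above 0, with a median of -0.71. The medians of X-linked and autosomal genes differed by -0.08. After genotype and set were fitted, residuals of the X level over the autosomal level had an SD of 0.15 between libraries. This SD makes no allowance for the number of terms fitted and so understates the spread.

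**Figure D3:**
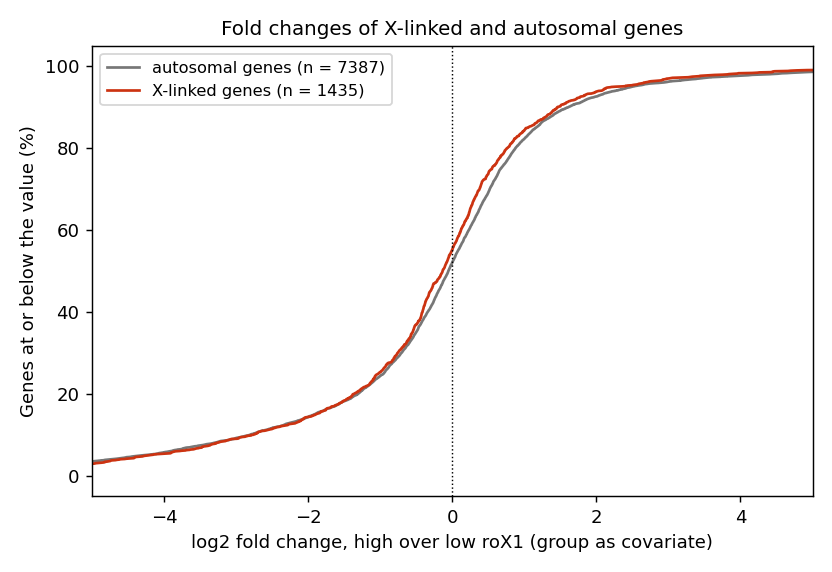
Cumulative share of genes in percent by log2 fold change, high-roX1 over low-roX1 with genotype as a covariate, for 1435 X-linked genes (red) and 7387 autosomal genes (grey), drawn from -5 to 5. The curves run close together, with medians of -0.13 and -0.06.

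The levels of the MSL genes and of Clamp reached at most 96.2 CPM, and each was at 0 in at least 1 library. Unr, an RNA-binding cofactor of Sxl and the protein-coding member of this list with the highest mean, was at 402 to 1790 CPM in the high-roX1 and 456 to 1642 CPM in the low-roX1 libraries. Of 11 tested genes of this list other than the roX genes, 6 had a log2 fold change above 0 and 5 below, with a median of 0.05, and edgeR called 0. The 5 MSL genes overlapped between the sets. The gene msl-2, the subunit limiting for the complex, was at 0 to 65.7 CPM (median 14.3) in the high-roX1 and 0 to 14.8 CPM (median 5.30) in the low-roX1 libraries, with a log2 fold change of 0.33 (SE 2.91). The scaffold gene msl-1 was at 0 to 27.6 CPM in both sets, and the chromodomain gene msl-3 at 0.923 to 52.1 against 0 to 23.2 CPM. The helicase gene mle, which loads the roX RNAs, was at 0 to 94.5 against 7.23 to 56.4 CPM, and the acetyltransferase gene mof at 0 to 28.6 against 0.462 to 28.9 CPM. Clamp, a zinc finger protein that helps recruit the complex to the X, was at 0 to 96.2 against 1.15 to 42.7 CPM. The lowest p values of this list after roX2 were those of e(y)2, a subunit of a transcription and mRNA export complex (log2 fold change -0.90, SE 0.62), and of the chromatin kinase gene JIL-1 (-0.86, SE 0.66), with unadjusted p of 0.157 and 0.204 in edgeR.

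Among sex determination genes, 4 of 15 tested had a log2 fold change above 0 and 11 below, with a median of -0.16. In edgeR 0 were called, and in DESeq2 1 was, dsx. Sxl, the switch gene of this pathway, was at 101 to 287 CPM (median 157) in the high-roX1 and 182 to 360.2 CPM (median 240.0) in the low-roX1 libraries. Its log2 fold change was -0.76 (SE 0.47, unadjusted p = 0.119 in edgeR), and the sets overlapped. These are counts over all isoforms, and the sex-specific splice forms of Sxl cannot be read from them. The gene dsx, the transcription factor at the end of the pathway, was detected in only 1 high-roX1 library, Notch RNAi 3 at 1.85 CPM, and in 6 of 7 low-roX1 libraries, at up to 42.7 CPM in Shal RNAi 1. The gene had 7 counts in Notch RNAi 3, 185 in Shal RNAi 1, 111 in Notch RNAi 4, 15 in Notch+Shal RNAi 3 and 16 in Control 3. In Notch RNAi 2 and Control 1 it had 1 and 2 counts, below the floor of 3. Its log2 fold change of -6.54 (SE 2.60) had an unadjusted p of 0.0202 in edgeR (adjusted p = 1), and DESeq2 called it lower in the high-roX1 libraries (-8.04, adjusted p = 0.0259). The proneural gene sc, an X-linked signal element of this pathway, was at 0 to 25.03 against 0 to 114.8 CPM (log2 fold change -5.87, SE 2.91, unadjusted p = 0.0574 in edgeR), and at 6.20 without Notch RNAi 4, Notch+Shal RNAi 3 and Control 3.

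Genes of the Y chromosome gave almost no counts. Of 113 in the table, 18 had a count in any library. All of them together summed to 0 to 52 counts in the high-roX1 libraries (median 9) and 2 to 20 counts in the low-roX1 libraries (median 5). Shal RNAi 3, with the highest roX2, had 0 Y counts, and Notch+Shal RNAi 1, with the highest roX1, had 52, of which 21 were from CR45775, 15 from Mst77Y-7 and 10 from CR41507. CR41507 had 1 to 11 counts in 10 libraries, controls included, and Mst77Y-7, one of a family of near-identical copies whose reads the counting may split, had counts in 3 libraries, Notch+Shal RNAi 1 (15), Control 1 (8) and Notch RNAi 3 (7). CR45771 had 5 counts in Notch+Shal RNAi 1, 5 in Control 1 and 1 in Control 3. CR41506 had at most 2 and FDY at most 2. The Y counts thus overlapped between the sets.

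Neighbours of the roX genes were compared because roX RNAs are made at sites where the complex assembles. Of 5 tested genes within 50000 bases of roX1, 1 had a log2 fold change above 0, and of 15 near roX2, 6 did, with medians of -1.84 and -0.15. The value of -1.84 is that of yin, a gene with few counts (SE 3.14, means of 3.76 and 8.36 CPM). The gene ec, which overlaps roX1 on the other strand, was at 0 to 0.148 CPM in the high-roX1 and 0 to 29.7 CPM in the low-roX1 libraries. Because the strand setting of the counting is not given, reads of roX1 and ec cannot be told apart where the genes overlap. The vacuolar ATPase gene VhaAC39-1, close to roX1 and well expressed, had means of 331 and 385 CPM and a log2 fold change of 0.30 (SE 0.58). CG42541, also close to roX1, had means of 122 and 91.6 CPM and a log2 fold change of -0.64 (SE 0.79).

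X-linked neuronal genes, which carry much of the excitability of this cell, overlapped between the sets. Of 29 tested, 17 had a log2 fold change above 0 and 12 below, with a median of 0.10, against -0.13 for all X-linked genes, and edgeR called 0. The microtubule-associated protein gene futsch was at 1225 to 6349 CPM (median 3223) in the high-roX1 and 745 to 6073 CPM (median 3488) in the low-roX1 libraries. Sh, the Shaker potassium channel gene, was at 475 to 1713 CPM (median 1122) against 746 to 1716 CPM (median 901), a log2 fold change of -0.03 (SE 0.46). The sodium channel gene para was at 332 to 2998 CPM (median 973) against 160.0 to 2751 CPM (median 540.5), a log2 fold change of -0.08 (SE 0.61), and the highest library of each set was a Shal RNAi library with much mitochondrial RNA.

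The largest of these differences among the 8 most abundant members was that of Appl, the fly homologue of the amyloid precursor protein, with 700.3 to 2319 CPM (median 1139) against 307 to 1082 CPM (median 698), a log2 fold change of 0.94 (SE 0.53, unadjusted p = 0.0929 in edgeR). Frq1, a neuronal calcium sensor, was at 1369 to 3739 against 892 to 3052 CPM, with a log2 fold change of 0.79 (SE 0.50). The cell adhesion genes Nrg, Fas2 and Ten-a had log2 fold changes of 0.17 (SE 0.47), 0.37 (SE 0.58) and -0.40 (SE 0.48). N, the Notch receptor gene, was at 1.29 to 29.9 CPM in the high-roX1 libraries and 9.004 to 329 CPM in the low-roX1 libraries. Its log2 fold change was -2.58 (SE 0.98, unadjusted p = 0.0161, adjusted p = 1 in edgeR). The low-roX1 libraries Notch RNAi 4, Notch+Shal RNAi 3 and Control 3 held 294, 329 and 229 CPM of N and the other 4 at most 31.5 CPM.

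Genes with the lowest p among those higher in the high-roX1 libraries did not pass in edgeR over the 13 libraries with filter and covariate. In DESeq2, 4 of them besides roX2 passed. By CPM their sets overlapped, roX2 aside, and by normalised CPM those of roX2 overlapped as well. The gene rdgC, a calcium-regulated protein phosphatase that dephosphorylates rhodopsin, was at 24.58 to 45 CPM in all 6 high-roX1 libraries and at 0.161 to 53.7 CPM (median 2.54) in the low-roX1 libraries, where Control 1 and 2 held 34.1 and 53.7 CPM and the other 5 at most 4.21. Its log2 fold change was 5.22 (SE 1.42, unadjusted p = 0.00151, adjusted p = 1 in edgeR). CG34370 was at 26.7 to 191 CPM (median 129) against 2.77 to 87.5 CPM (median 17.8), a log2 fold change of 3.47 (SE 0.97). The gene beat-Ia, which acts in motor axon guidance, was at 86.5 to 1406 CPM against 36.9 to 257 CPM (log2 fold change 2.07, SE 0.62), with its top value in Notch RNAi 1. CG7376 was at 0.264 to 35.7 against 0 to 22.4 CPM, with a log2 fold change of 7.41 (SE 2.24). The X-linked genes Ranbp16, a nuclear transport receptor (20.1 to 139 against 4.85 to 102 CPM), and CG15914 (0 to 39.3 against 0 to 6.51 CPM) had log2 fold changes of 2.16 (SE 0.67) and 8.88 (SE 3.12). Unadjusted p values of these 5 genes were 0.00181 to 0.0111 and adjusted p values were 1 in edgeR. DESeq2 called rdgC (log2 fold change 5.20, adjusted p = 1.06e-04), CG34370 (3.44, adjusted p = 0.00593), Ranbp16 (2.09, adjusted p = 0.0259) and CG15914 (8.00, adjusted p = 0.0477), and not beat-Ia or CG7376. CG15914 had 100, 61 and 213 counts in Notch RNAi 1, Notch+Shal RNAi 2 and Shal RNAi 3, and 0 or 1 in the other high-roX1 libraries. Its only low-roX1 counts were 45 in Control 1 and 48 in Control 3, and controls do not add to the contrast. Its fitted values thus rest on low-roX1 libraries without a count and are not measured folds.

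Genes with the lowest p among those lower in the high-roX1 libraries were led by pio, and the calls differed between tools: edgeR with the filter on low counts called none, while edgeR without it or DESeq2 called each of those given here. The gene pio, piopio, an apical extracellular matrix protein of epithelia and tendon cells (chromosome 2R), was at 0.264 to 12.8 CPM (median 5.30) in the high-roX1 and 13.7 to 389 CPM (median 28.4) in the low-roX1 libraries, so the sets did not overlap. Its log2 fold change was -5.18 (SE 1.13, unadjusted p = 1.76e-04, adjusted p = 0.782 in edgeR), and edgeR without the filter called it (-5.18, adjusted p = 5.54e-05) while DESeq2 did not. The gene dpy, which encodes the giant matrix protein dumpy and is also on an autosome, was at 0.133 to 19.5 against 20.9 to 99.2 CPM (log2 fold change -3.75, SE 1.17, adjusted p = 1 in edgeR, 0.0109 in DESeq2), again without overlap. Only 3 of 8907 genes (0.0337%) were lower in every high-roX1 than in every low-roX1 library by normalised CPM, the third being CG9095, with 0 counts in the high-roX1 set and at least 11.4-fold lower there (floor of 3 counts per library), which DESeq2 called (adjusted p = 0.0443). Besides roX1, 2 genes (0.0225%) were higher in every high-roX1 library, Fili (log2 fold change 1.02, SE 0.68) and CG42340 (1.45, SE 1.14), again by normalised CPM. The libraries can be split into sets of these sizes in 1716 ways. Among 8907 genes, a few separations of this kind in either direction can thus arise without a difference between the sets. The separation of CG9095 rested on few counts, with 3 in Notch RNAi 2, equal to the floor. CG9095, Fili, CG42340 and dpy were named after their values were seen.

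Other genes of this direction were high in different numbers of low-roX1 libraries. Ance, a peptidase related to angiotensin converting enzyme, was at 0.369 to 48.1 CPM against 2.92 to 687 CPM (log2 fold change -4.12, SE 0.99, unadjusted p = 5.37e-04, adjusted p = 0.831 in edgeR), and the medians of the sets were 23.2 and 22.6 CPM. It passed in edgeR without Notch RNAi 2 (log2 fold change -4.80, adjusted p = 0.0159) and without the filter (-4.12, adjusted p = 1.49e-04), and in DESeq2 (-4.23, adjusted p = 0.00194), and the adjusted p ran from 0.0159 to 1 as each library was left out. ImpE1, an ecdysone-inducible gene of imaginal discs, was at 0 to 8.16 against 0.693 to 186 CPM (log2 fold change -4.93, SE 1.45). CG31997, on chromosome 4, was at 51.8 to 71.6 CPM in the high-roX1 libraries, a narrow range, and at 8.11 to 720 CPM in the low-roX1 libraries, of which 5 held 333 CPM or more (log2 fold change -2.50, SE 0.76). The X-linked genes with the lowest p were AlkB, a DNA and RNA demethylase homologue (-8.22, SE 2.40), CG9689 (-7.80, SE 2.29) and Sgs4, a glue protein of the larval salivary gland (-6.50, SE 1.86), with Sgs4 at 0 to 2.38 against 0.136 to 354 CPM. AlkB was at 0 to 30.3 against 0 to 63.3 CPM, with means of 9.82 and 31.4 CPM, a smaller difference than its fitted value. It had counts in 2 high-roX1 libraries, Shal RNAi 2 and 3, and in 6 low-roX1 libraries. CG9689 was at 0 to 23.5 against 0 to 125 CPM. CG15404 had no count in the high-roX1 set and was at least 56.4-fold lower there, but 164 CPM of Notch+Shal RNAi 3 carried its low-roX1 mean of 27.6 CPM. In edgeR without the filter, ImpE1 (adjusted p = 0.0122), CG31997 (0.0229), AlkB (0.0232), CG9689 (0.0113), Sgs4 (1.96e-04) and CG15404 (2.62e-04) were called. DESeq2 called AlkB (adjusted p = 9.27e-05), CG9689 (6.01e-05) and Sgs4 (0.00114), and not the others of these 6.

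Notch RNAi 4, Notch+Shal RNAi 3 and Control 3, all low-roX1, stood apart in several of these genes and were set aside as a group because they held the most N RNA. For pio they held 389, 237 and 275 CPM and no other library more than 28.4 CPM, for ImpE1 129, 163 and 186 CPM, with up to 10.1 elsewhere, and for the gap junction gene ogre 417, 443 and 475 CPM, with up to 63.7 elsewhere. Without these 3, an alternative added after the data were seen, the log2 fold change was -3.39 for pio (unadjusted p = 0.0977 in edgeR), -3.75 for Ance (0.220), -3.80 for ImpE1 (0.246), -0.89 for CG31997 (0.457) and -0.12 for AlkB (0.957). That of roX2 was 9.14 (adjusted p = 0.0731 in edgeR), 0 genes were called, and 212 had an unadjusted p under 0.05. The medians were then 0.12 for X-linked and 0.14 for autosomal genes. With genotype as a covariate, the low-roX1 side of this contrast rested on Notch RNAi 2 and Shal RNAi 1 alone. Notch+Shal RNAi had no low-roX1 library left, and all controls were low-roX1. Higher p values in this fit may thus come from fewer libraries, which was not tested.

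**Figure D4:**
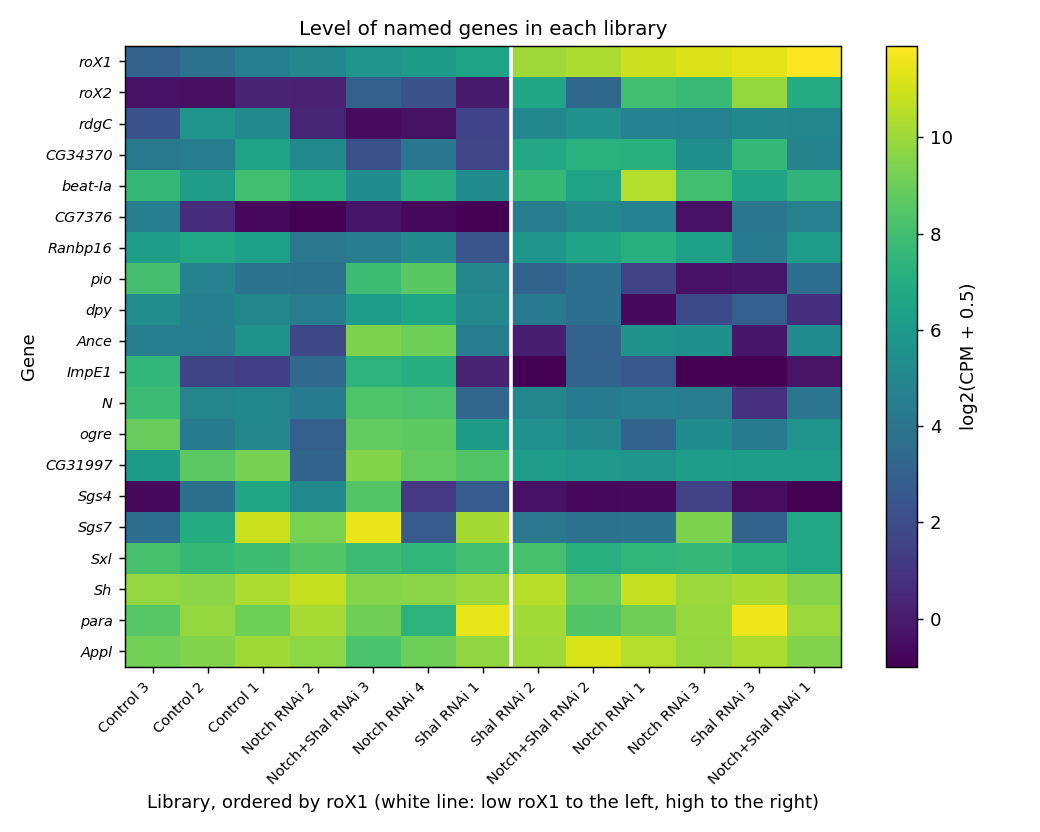
Level of named genes as log2(CPM + 0.5) in each library, libraries ordered by roX1 with the white line between low-roX1 (left) and high-roX1 (right). The roX genes rise across the line, pio, ImpE1, N and ogre are highest in Control 3, Notch+Shal RNAi 3 and Notch RNAi 4, and the X-linked channel genes Sh and para show no step at the line.

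Markers of the motoneuron and of other cells were read in both sets, and their part in the differences above was not tested. The motoneuron list summed to 8410.3 to 20167 CPM (median 13503) in the high-roX1 and 4050.5 to 20235 CPM (median 7692) in the low-roX1 libraries, with 8 of 9 tested members above 0 and a median log2 fold change of 0.39. The member below 0 was eve (log2 fold change -0.60, SE 1.24). Much of these sums came from nrv3 alone, with means of 8532 CPM in the high-roX1 and 6963 CPM in the low-roX1 libraries. Muscle genes summed to 126 to 2464 CPM (median 460.3) against 376 to 2281 CPM (median 922), with 0 of 6 members above 0. Hemocyte (blood cell) genes summed to 17.8 to 253 CPM against 48.1 to 1540 CPM (1 of 5 above 0) and fat body genes to 1421 to 14555 CPM against 1827 to 18399 CPM (1 of 6). Glial genes summed to 198 to 761 CPM against 161 to 1036 CPM (2 of 4 above 0). Eaat1 (log2 fold change 2.15, SE 2.52) and nrv2 (1.05, SE 0.83) were higher in the high-roX1 libraries. The glutamine synthetase gene Gs2 (-2.10, SE 0.82) and moody (-0.49, SE 2.30) were lower, so the list had no common direction. Gs2 was at 16.3 to 80.1 against 25.7 to 755 CPM, with its top value in Notch RNAi 4. Markers of cholinergic and GABA neurons summed to 0.148 to 62.7 against 3.05 to 22.8 CPM, neuroblast genes to 0 to 6.67 against 0 to 5.43 CPM, and germline and gonad genes to 0 to 13.9 against 0 to 0.609 CPM, with 1, 1 and 0 members tested. Of 6 RNA interference machinery genes 4 lay above 0. In edgeR 0 members of these lists were called.

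Genes that mark transgenes and landing sites, most of them X-linked, were read last. Of 7 tested, 1 had a log2 fold change above 0. This was y, the yellow pigmentation gene, at 3.32 to 3329 CPM (median 854) against 11.5 to 1602 CPM (median 73.0), with a log2 fold change of 1.31 (SE 0.69, unadjusted p = 0.0728 in edgeR). Its level followed the labelled genotype: it was at 337 to 3329 CPM in the 7 Notch RNAi and Notch+Shal RNAi libraries and at 3.32 to 85.4 CPM in the 6 Shal RNAi and control libraries. The eye colour transporter gene w was at 5.31 to 758 against 0.634 to 629.8 CPM.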

How the data were processed

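RNA of 13 MN1-Ib libraries was copied by template switching, amplified and read in pairs of 100 bases, per the labels' protocols, which describe no molecular identifier. The authors deposited raw read counts for 17753 genes, 1 column per library. The submitters' processing notes name build BDGP6, STAR 2.7.0e, edgeR 3.26.7, limma 3.40.6 and R 3.6.1; their roles, the annotation release, strand setting and duplicate handling are not given in those sources. Symbols and positions come from BDGP6.54, in which 17626 gene IDs were found and 127 were not.

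Libraries were split at 1000 CPM of roX1. The members and gene lists were chosen with earlier results of these data known. edgeR 4.0.16 in R 4.3.3 was used with TMM factors, the default filter (minimum count 10, total 15), robust quasi-likelihood fitting over the 13 libraries with genotype as covariate, and Benjamini-Hochberg adjustment at 0.05 over 8908 genes; roX1 was fitted but not counted. X-linked shares were compared by 2-sided exact permutation (scipy 1.17.1), without roX genes and mitochondrial counts. Lists cover dosage compensation, sex determination, X-linked neuronal genes, transgene and landing-site genes, motoneuron, cholinergic and GABA neuron, glia, muscle, hemocyte, fat body, neuroblast, germline and RNA interference machinery genes. The rule named both roX genes, the lowest 3 p of the first 2 lists, up to 6 Y genes, up to 8 abundant X-linked neuronal genes, the 5 lowest p per direction with a mean of at least 20 CPM and a count in each library of the higher set, and the 3 lowest p per direction on X and autosomes; others were named after their values were seen. Alternatives were RLE, TMMwsp and autosomal factors, other filters, no covariate, other limits, a replicate block, DESeq2 1.42.0, limma 3.58.1 voom and libraries left out. Simulated counts were used only to check the code of the fit, and no power in these data is claimed from them.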

Additional observations from a re-analysis of the deposited data

Results flagged for a closer look

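Of 66 sets of values compared by the spread of the highest or lowest library from its nearest neighbour, 16 held a library that stood apart. The limits used give about 1 set in 20 only for independent, normally distributed values. Many of these genes were chosen by their p and the sets shared libraries, so the 16 cannot be compared with that rate. Among the high-roX1 libraries, roX2 stood far above the others in Shal RNAi 3 (932 CPM), as did para (2998 CPM) and Nrg (2471 CPM) in the same library, beat-Ia in Notch RNAi 1 (1406 CPM, far from the others of both the high-roX1 and the Notch RNAi libraries) and rdgC in Notch+Shal RNAi 2 (45 CPM). Among the low-roX1 libraries, the X level over the autosomal level was highest in Notch RNAi 4 (0.31 on the log2 scale), CG34370 in Control 1 (87.5 CPM), and para (2751 CPM) and JIL-1 (689 CPM) in Shal RNAi 1.

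Within the 4 Notch RNAi libraries, replicate 4 stood apart for pio (389 CPM), ImpE1 (129 CPM), Ance (525 CPM) and CG31997 (442 CPM), replicate 1 for Fas2 (2006 CPM), and replicate 2 for Sxl (360.2 CPM).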

How the results depend on the processing

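With few cells per pool and a high dispersion, a difference that is not called may still exist. The difference between the X-linked and autosomal medians was -0.22 to -0.01 over all alternatives, and that of the X-linked share 0.246 to 0.605 percentage points with 1 library left out (exact permutation p = 0.131 to 0.530). Without a filter on low counts edgeR called 37 genes (6 X-linked, 31 autosomal), among them roX2 at 6.13. That fit took all genes with a count, 2098 X-linked and 11264 autosomal. Without the genotype covariate edgeR called 1, roX2, at 7.62. DESeq2 called 78 (11 X-linked, 66 autosomal), among them roX2 at 6.12. It started from the genes past the filter, of which 1436 were X-linked and 7387 autosomal, roX1 aside. The X-linked part of the calls was thus near that of the genes fitted. DESeq2 and edgeR without a filter shared 12 called genes, 32.4% of the calls without a filter and 15.4% of those of DESeq2. With 1 library left out, 0 to 1 genes were called (0 to 1 X-linked, 0 to 1 autosomal): Ance without Notch RNAi 2, CG4650 without Notch RNAi 3 and roX2 without Notch+Shal RNAi 3. In these fits roX2 ran from 5.24 to 7.88.

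Log2 fold changes of named genes that edgeR with the filter did not call turned sign as follows, and the cause was not tested. CG9689, one of them, was called by DESeq2 and by edgeR without the filter. Without the covariate para was at 0.28 and Sh at 0.20, and in limma voom Sh was at 0.047. With a limit of 2000 CPM, Fas2 was at -0.30, JIL-1 at 0.32, para at 0.82 and Sh at 0.0582. Without Notch RNAi 4, Notch+Shal RNAi 3 and Control 3, CG9689 was at 0.035, Fas2 at -0.23, futsch at -0.42, Nrg at -0.022, sc at 6.20 and N at 0.10, the last fixed by the choice of these libraries on N. With 1 library left out, Fas2 ran from -0.14 to 1.09, futsch from -0.26 to 0.44, JIL-1 from -1.33 to 0.0071, Nrg from -0.10 to 0.39, para from -0.44 to 0.41 and Sh from -0.31 to 0.18.

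Whether the replicate numbers pair the libraries was not settled: 5 of 18 pairs with the same number had deviations correlated above 0.1 (range -0.19 to 0.24). Pairs with different numbers ranged more widely. They ran from -0.30 (Notch RNAi 4 with Notch+Shal RNAi 1) to 0.35 (Notch RNAi 4 with Control 3). The correlations of pairs with the same number were weak, and a slight pairing by number cannot be told from none. With the replicate block 0 genes were called, roX2 was at 6.02, futsch at -0.32 and Nrg at -0.052. The median log2 fold change of all genes was then 0.16, against -0.07 without the block.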

Other observations

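Salivary gland glue genes, secreted by another larval tissue at the end of larval life, were present in many of these libraries and were looked at after their values were seen. Sgs3, Sgs4, Sgs5, Sgs7 and Sgs8, all small secreted glue proteins, summed to 17.0 to 1030 CPM in the high-roX1 libraries (median 24.5) and 13.04 to 7637 CPM in the low-roX1 libraries (median 1060.3). Notch+Shal RNAi 3 held 7637 CPM, Control 1 3558, Shal RNAi 1 1618, Notch RNAi 2 1060.3 and Control 2 272 CPM, whereas Notch RNAi 4 and Control 3 held 13.04 and 17.9 CPM. In the high-roX1 set only Notch RNAi 3 (1030 CPM) and Notch+Shal RNAi 1 (156 CPM) exceeded 25.9 CPM, so the sets overlapped. In edgeR with genotype as a covariate and no filter on low counts, all 5 genes were called lower in the high-roX1 libraries (log2 fold change -6.49 to -4.55, adjusted p = 6.56e-06 to 1.96e-04), with the filter edgeR called 0 of them, and DESeq2 called 1, Sgs4 (adjusted p = 0.00114). The libraries rich in glue transcripts were not, except Notch+Shal RNAi 3, those rich in pio and ImpE1.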
